A study of Mus musculus with 18 samples.

Results

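The 9 CC chemokine genes Ccl2, Ccl5, Ccl6, Ccl7, Ccl8, Ccl9, Ccl11, Ccl12 and Ccl19 were taken by name from the 33440 genes measured in 18 RNA-seq libraries of mouse adipocytes. The study asked which genes lie downstream of interferon regulatory factor 3 (IRF3), an innate immune transcription factor, in adipocytes, and it sequenced a loss-of-function and a gain-of-function experiment. All mice were C57BL/6.

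In the gain-of-function experiment, stromal vascular fraction (SVF) cells from inguinal fat of IRF3-2D mice, taken at 4 to 6 weeks of age, were differentiated into adipocytes with insulin and rosiglitazone and transduced with AAV on day 6. IRF3-2D mice carry a constitutively active mutant Irf3 allele behind a stop that Cre removes. AAV with Cre gave FI3OE cells (3 libraries) and AAV with GFP gave WT cells (3 libraries), so that the WT cells also carried the allele, with its stop in place, and the groups also differed in Cre. In the loss-of-function experiment, RNA bound to adipocyte ribosomes was isolated by translating ribosome affinity purification (TRAP) from epididymal white adipose tissue (eWAT) of FI3KO mice (6 libraries) and WT mice (6 libraries) after 8 weeks of high-fat diet (HFD) at thermoneutrality. FI3KO mice lack functional Irf3 in cells with adiponectin-driven Cre, and both groups carried the tagged ribosome used for the pulldown. The labels call the libraries biological replicates but do not name the animals or cultures, so p-values measure the spread between these libraries.

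CC chemokines are small secreted proteins named for a pair of adjacent cysteines near the amino terminus. They bind G protein-coupled receptors on leukocytes and direct their migration, and glycosaminoglycans hold them near the cells that secrete them. In obese adipose tissue they are best known for attracting monocytes, which become macrophages there, and NF-kB and interferon regulatory factors are among the factors known to induce their genes.

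Libraries held between 21541334 and 40490283 reads. Irf3, the targeted gene, was at 92.0, 102 and 91.4 CPM (read counts scaled to a common library total) in FI3OE and at 57.9, 56.8 and 56.8 CPM in WT SVF-derived adipocytes. In TRAP it was at 12.5 to 19.97 CPM in FI3KO and 16.4 to 22.8 CPM in WT, and its transcript Irf3-202 held 0 reads in all 6 FI3KO libraries against 164 to 388 reads in the WT libraries. The log2 fold change of Irf3 in TRAP was -0.35 (SE 0.106, edgeR adjusted p = 0.0198), and it was 0.71 with an offset for transcript length. The adipocyte label was checked against 10 adipocyte markers, whose summed level was 37290 to 51810 CPM in TRAP and 8255 to 9494 CPM in the SVF-derived cells, where 10 fibroblast and preadipocyte markers summed to 18110 to 18890 CPM and 15 macrophage markers to 2212 to 2464 CPM. WT TRAP replicates 1 and 2 stood apart from WT replicates 3 to 6 in several members. The TRAP results are therefore given over all replicates, within replicates 1 and 2 and within replicates 3 to 6. This split was taken from earlier results on these data and is in no label.

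All of the genes but Ccl19 lie within a single stretch of chromosome 11 (GRCm38, GENCODE M21). Ccl2 (chr11:82035571-82037453), Ccl7 (chr11:82045712-82047525), Ccl11 (chr11:82057823-82062955), Ccl12 (chr11:82101845-82103400) and Ccl8 (chr11:82115185-82116799) follow each other on the plus strand. Ccl5 (chr11:83525778-83530518), Ccl9 (chr11:83572919-83578636) and Ccl6 (chr11:83587882-83593087) lie further along on the minus strand. Ccl19 lies apart, on the minus strand of chromosome 4 (chr4:42754525-42756577). The windows of 60 coding bases that follow, each within 1 exon and read on the gene's own strand, show the feature that names the family, with the codons of the adjacent cysteines in capitals.
Ccl2: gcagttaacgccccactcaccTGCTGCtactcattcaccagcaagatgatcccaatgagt
Ccl7: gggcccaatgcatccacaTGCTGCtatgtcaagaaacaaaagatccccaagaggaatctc
Ccl8: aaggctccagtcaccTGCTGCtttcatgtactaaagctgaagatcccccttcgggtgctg
Ccl12: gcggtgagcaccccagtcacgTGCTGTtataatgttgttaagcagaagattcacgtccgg
Ccl11: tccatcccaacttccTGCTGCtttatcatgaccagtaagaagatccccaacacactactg
Ccl5: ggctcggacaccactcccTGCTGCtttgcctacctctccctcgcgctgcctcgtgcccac
Ccl6: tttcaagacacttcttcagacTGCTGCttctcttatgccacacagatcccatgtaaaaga
Ccl9: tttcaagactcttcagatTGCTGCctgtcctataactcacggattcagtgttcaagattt
Ccl19: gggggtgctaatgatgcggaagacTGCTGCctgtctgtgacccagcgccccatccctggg
Ccl12 ended the pair with TGT and the other 8 genes with TGC. Aligned on these codons over 51 bases, Ccl8 and Ccl12 shared 35 bases, Ccl6 and Ccl9 shared 33, and Ccl2 and Ccl11 shared 31. No run of 31 bases was common to any 2 of the 9 genes, so reads of 1 member had no exact 31-base match in another. Ccl19 was different with respect to the rest of the transcriptome, since 58.8% of its 895 distinct runs of 31 bases also occurred in 4 other genes, among them the pseudogenes Ccl19-ps1 and Ccl19-ps3, and its counts are therefore uncertain. Genes annotated on the strand opposite Ccl2, Ccl6 and Ccl19 (Gm17268, E230016K23Rik and 4930578G10Rik) held 0, at most 20 and at most 15 reads in a library, and without strand in the libraries such reads cannot be told from those of the chemokines.

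The first comparison asked how constitutively active IRF3 changed the chemokines in SVF-derived adipocytes. Ccl5, Ccl2 and Ccl7 rose in FI3OE, by log2 fold changes of 3.46, 1.51 and 1.33, and were called, which here means that they met both cutoffs of the study's methods, an adjusted p no higher than 0.05 and a log2 fold change of 1 or more in size. That was 3 of 9 members, all higher, where 1.99% of the 16105 genes tested were called higher. Ccl8, Ccl11 and Ccl6 rose past the adjusted p alone and Ccl12 fell past it, which made 6 of 9 members higher and 1 lower where 20.2% of all genes passed higher and 16.8% lower. The median log2 fold change was 0.69 over the members and -0.005 over all genes tested.

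Ccl2 (MCP-1) is the chief ligand of Ccr2 and draws monocytes out of the blood. Its level was 52.2, 48.6 and 50.3 CPM in FI3OE and 16.8, 16.3 and 19.8 CPM in WT. Every FI3OE library was therefore above every WT library, with means of 50.3 ± 1.82 and 17.6 ± 1.89 CPM (SD, n = 3 each). The log2 fold change was 1.51 (SE 0.0687, edgeR adjusted p = 2.09e-08). Ccl7 (MCP-3), which also acts on Ccr2 and is encoded next to Ccl2, was at 76.4, 68.6 and 75.9 CPM in FI3OE and 27.3, 28.8 and 31.7 CPM in WT. The groups did not overlap, and the log2 fold change of Ccl7 was 1.33 (SE 0.0618, edgeR adjusted p = 2.5e-08).

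Ccl8 (MCP-2), which in mice is a ligand of Ccr8, had levels of 12.4, 12.4 and 9.41 CPM in FI3OE and 5.16, 6.16 and 6.18 CPM in WT. The groups did not overlap, although the third FI3OE library lay closer to WT than the remaining pair. Ccl8 had a log2 fold change of 0.96 (SE 0.13, edgeR adjusted p = 0.000141), just under the fold cutoff. Ccl12 (MCP-5), a further Ccr2 ligand, was the member with the opposite order, at 3.30, 3.44 and 3.30 CPM in FI3OE against 4.62, 3.75 and 5.20 CPM in WT. Its log2 fold change was -0.44 (SE 0.147, edgeR adjusted p = 0.0357). Ccl12 lies between Ccl11 and Ccl8.

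Ccl11 (eotaxin), which attracts eosinophils through Ccr3, was at 6.72, 6.92 and 7.31 CPM in FI3OE and at 3.39, 4.77 and 4.88 CPM in WT. Those groups did not overlap, and the log2 fold change was 0.69 (SE 0.142, edgeR adjusted p = 0.0027). Ccl5 (RANTES), which attracts T cells and monocytes and is a known target of IRF3, was at 22.6, 23.4 and 22.4 CPM in FI3OE and at 2.60, 1.76 and 1.81 CPM in WT. It showed the largest change among the 9 members, with a mean of 22.8 ± 0.538 CPM against 2.06 ± 0.472 CPM (SD, n = 3 each) and a log2 fold change of 3.46 (SE 0.12, edgeR adjusted p = 3.33e-09).

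Ccl6 and Ccl9, related ligands of Ccr1 that rodents carry and that myeloid cells make in quantity, changed little. Ccl6 was at 13.4, 14.4 and 16.4 CPM in FI3OE and 12.3, 10.1 and 11.9 CPM in WT, a log2 fold change of 0.37 (SE 0.0989, edgeR adjusted p = 0.0128). Ccl9 was at 17.6 to 19.4 CPM in FI3OE and 16.7 to 17.6 CPM in WT, and its log2 fold change of 0.11 did not pass (SE 0.0642, edgeR adjusted p = 0.203). Ccl19, a Ccr7 ligand that guides dendritic cells and naive T cells, stayed below 1 CPM in every library, at 0.337 to 0.761 CPM in FI3OE and 0.694 to 0.826 CPM in WT, and its log2 fold change of -0.40 did not pass either (SE 0.342, edgeR adjusted p = 0.401). Without overlap between the groups, 6 of 9 members were higher and 1 was lower in FI3OE, where 25.7% of all genes tested were higher and 23.8% lower in that way.

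**Figure D1:**
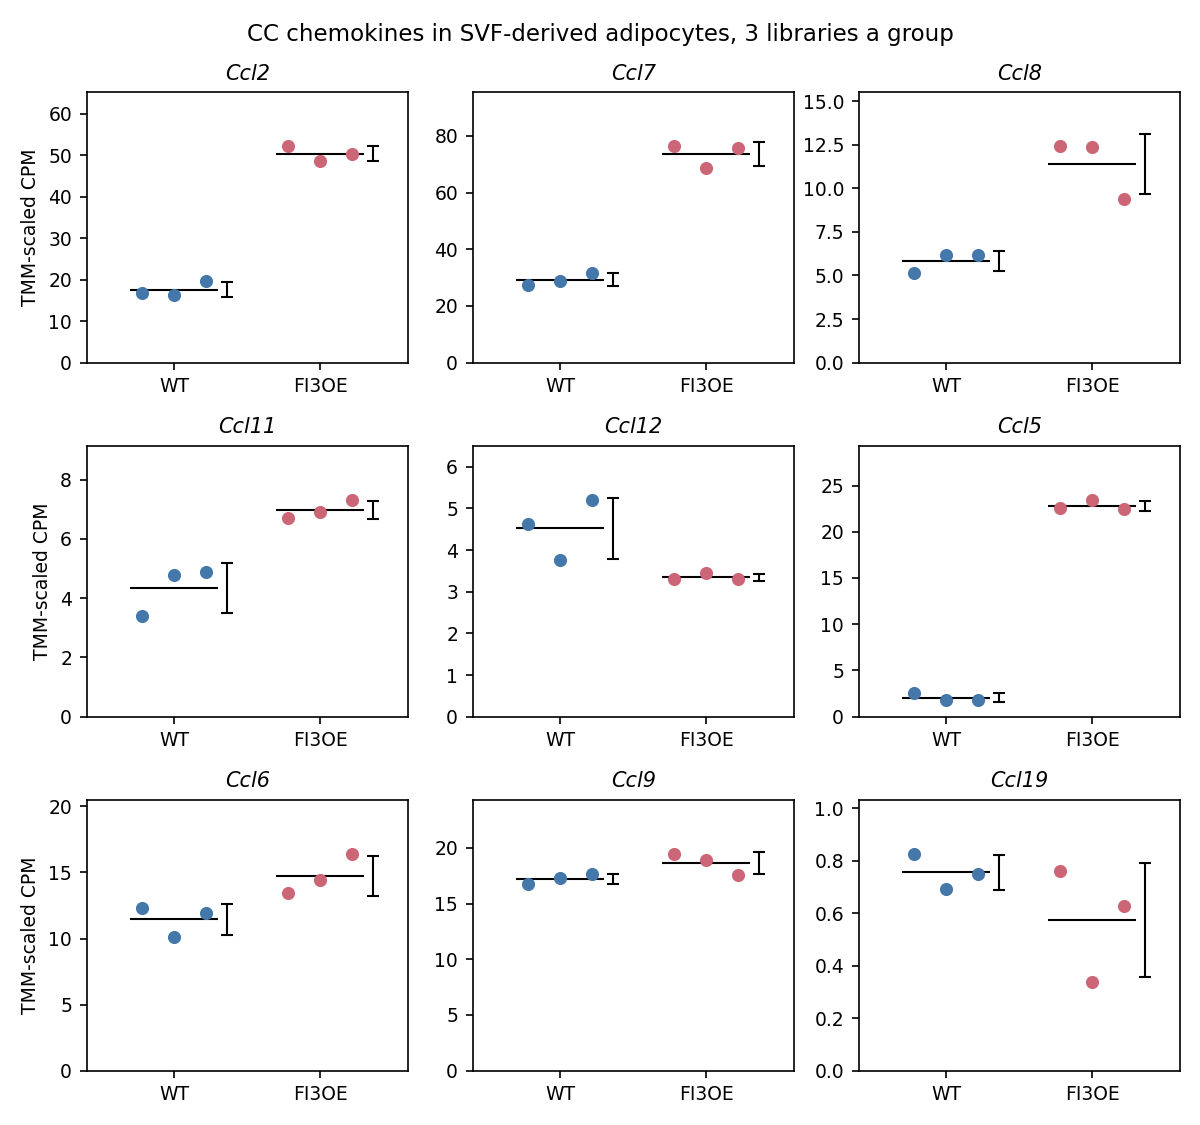
Level of each of the 9 CC chemokines in SVF-derived adipocytes, in TMM-scaled CPM on a linear axis, with a panel and a scale for each gene. Points are single libraries (3 WT and 3 FI3OE), black lines are means and bars are 1 SD. Ccl5, Ccl2 and Ccl7 separate most widely, while Ccl9 differs by less than 3 CPM and Ccl12 is lower in FI3OE.

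Summed over the 9 members, the level was 197 to 207 CPM in FI3OE and 89.6 to 99.9 CPM in WT. Ccl2 and Ccl7 together made up 59.5 to 62.1% of that sum in FI3OE and 49.2 to 51.5% in WT. The 15 macrophage markers had none called under both cutoffs, with 3 higher and 5 lower past the adjusted p alone, and summed to 2212 to 2244 CPM in FI3OE and 2307 to 2464 CPM in WT. Their median log2 fold change was -0.04, and 7 did not pass the adjusted p. Mrc1 had means of 237 CPM in FI3OE and 434 CPM in WT. Adipocyte markers summed to 8255 to 8750 CPM in FI3OE and 9405 to 9494 CPM in WT. The lower sum in FI3OE rested on Car3, with means of 1366 CPM in FI3OE and 2485 CPM in WT, while Adipoq was at 1022 and 767 CPM. None of the 10 was called, with 3 higher and 5 lower past the adjusted p alone, where 20.2% of all genes were higher and 16.8% lower.

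In a fit of all 18 libraries, which shares 1 estimate of spread between the experiments, Ccl5 alone kept its call, and the adjusted p was 0.116 for Ccl2, 0.0976 for Ccl7, 0.0878 for Ccl8 and 0.26 for Ccl11, while the log2 fold changes in that fit were 1.52 for Ccl2, 1.33 for Ccl7, 0.97 for Ccl8 and 0.69 for Ccl11. Calls also turned on single libraries for the members near a cutoff: Ccl8 passed both cutoffs without FI3OE replicate 3 (log2 fold change 1.09), WT replicate 2 (1.00) or WT replicate 3 (1.01), Ccl6 lost its adjusted p without FI3OE replicate 3 (0.0659) or WT replicate 2 (0.0523), and Ccl12 passed in 4 of 15 fits only, with adjusted p from 0.0164 to 0.593.

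The second comparison asked what loss of Irf3 in adipocytes changed in ribosome-bound RNA of eWAT. All 6 members that were expressed highly enough to be tested fell in FI3KO past the adjusted p, and 5 of them, Ccl2, Ccl7, Ccl11, Ccl19 and Ccl9, were called lower under both cutoffs. Of the 13624 genes tested, 4.87% were called lower and 18.3% were lower past the adjusted p alone. The median log2 fold change was -2.55 over the 6 members and 0.016 over all genes tested. Ccl5, Ccl8 and Ccl12 did not pass the filter on low counts. In bulk RNA, fewer cells of a type and less RNA per cell cannot be told apart.

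Ccl2 ranged from 0.547 to 2.53 CPM in FI3KO (median 1.42) and from 6.03 to 39.9 CPM in WT (median 34.6). The groups did not overlap, but WT replicates 1 and 2, at 6.75 and 6.03 CPM, lay far below the other 4 WT libraries, which were at 32.5 to 39.9 CPM. Over all libraries Ccl2 had a log2 fold change of -4.14 (SE 0.553, edgeR adjusted p = 0.000238). Ccl7 followed the same arrangement, with 1.59 to 5.79 CPM in FI3KO (median 2.51) and 10.3 to 46.9 CPM in WT (median 39.7). WT replicates 1 and 2 were at 11.1 and 10.3 CPM and the other WT libraries at 39.4 CPM or more, and the log2 fold change of Ccl7 was -3.40 (SE 0.446, edgeR adjusted p = 0.000215).

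Ccl11 was at 0.949 to 2.13 CPM in FI3KO (median 1.21) and at 5.87 to 13.9 CPM in WT (median 10.5). No WT library came near the FI3KO range, and the log2 fold change of -2.86 (SE 0.288, edgeR adjusted p = 6.28e-05) had the lowest adjusted p among the members. Ccl19 was at 0.294 to 0.773 CPM in FI3KO (median 0.361) and at 1.04 to 2.68 CPM in WT (median 2.196), again without overlap, with a log2 fold change of -2.23 (SE 0.325, edgeR adjusted p = 0.00038). Most of the Ccl19 reads in WT were assigned to a processed transcript, and protein-coding transcripts held 48.4 of 381.1 estimated reads in WT and 35.9 of 78.4 in FI3KO, of which 25.0 were in FI3KO replicate 4. Restricted to protein-coding transcripts, Ccl19 was too low to be tested.

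Ccl9 was the member whose groups overlapped, at 0.255 to 2.35 CPM in FI3KO (median 1.37) and 1.57 to 7.50 CPM in WT (median 6.16). WT replicates 1 and 2, both at 1.57 CPM, lay within the FI3KO range. The log2 fold change of Ccl9 over all libraries was -1.90 (SE 0.532, edgeR adjusted p = 0.014). With a replicate block Ccl9 lost its call (edgeR adjusted p = 0.0891). Ccl6 was at 1.27 to 3.69 CPM in FI3KO (median 2.59) and varied little in WT, at 4.40 to 5.63 CPM (median 4.71), with a log2 fold change of -0.93 (SE 0.25, edgeR adjusted p = 0.0116). Transcripts with a retained intron held most of the Ccl6 reads, and on its protein-coding transcripts alone, with 30.5% of its reads in FI3KO and 41.3% in WT, Ccl6 was called lower (log2 fold change -1.41, SE 0.311, edgeR adjusted p = 0.00408). Of the 6 members tested, 5 were lower in every FI3KO library than in every WT library, where 8.53% of all genes tested were.

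The members below the filter were near the floor of detection, where 3 reads correspond to 0.0963 CPM in the FI3KO library of median depth. Ccl5 had 1 read in the 6 FI3KO libraries together and 25 reads in WT, with 1 or more in all 6, which gave a WT to FI3KO ratio of CPM of 24.5 (exact 95% interval 4.01 to 1006, counting error only). Ccl8 had 3 reads in FI3KO and 22 in WT, a ratio of 7.19 (2.16 to 37.5). Over all replicates both were thus scarcer in FI3KO beyond counting error, at levels below those of the tested members. For Ccl8 the difference lay in replicates 3 to 6, with means of 0.00625 CPM in FI3KO and 0.154 CPM in WT. In replicates 1 and 2 its means were 0.0333 and 0.0467 CPM. Ccl5 was lower in FI3KO in both sets, at 0.0166 against 0.123 CPM and 0 against 0.127 CPM. Ccl12 had 1 read in each group and no fold can be given.

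**Figure D2:**
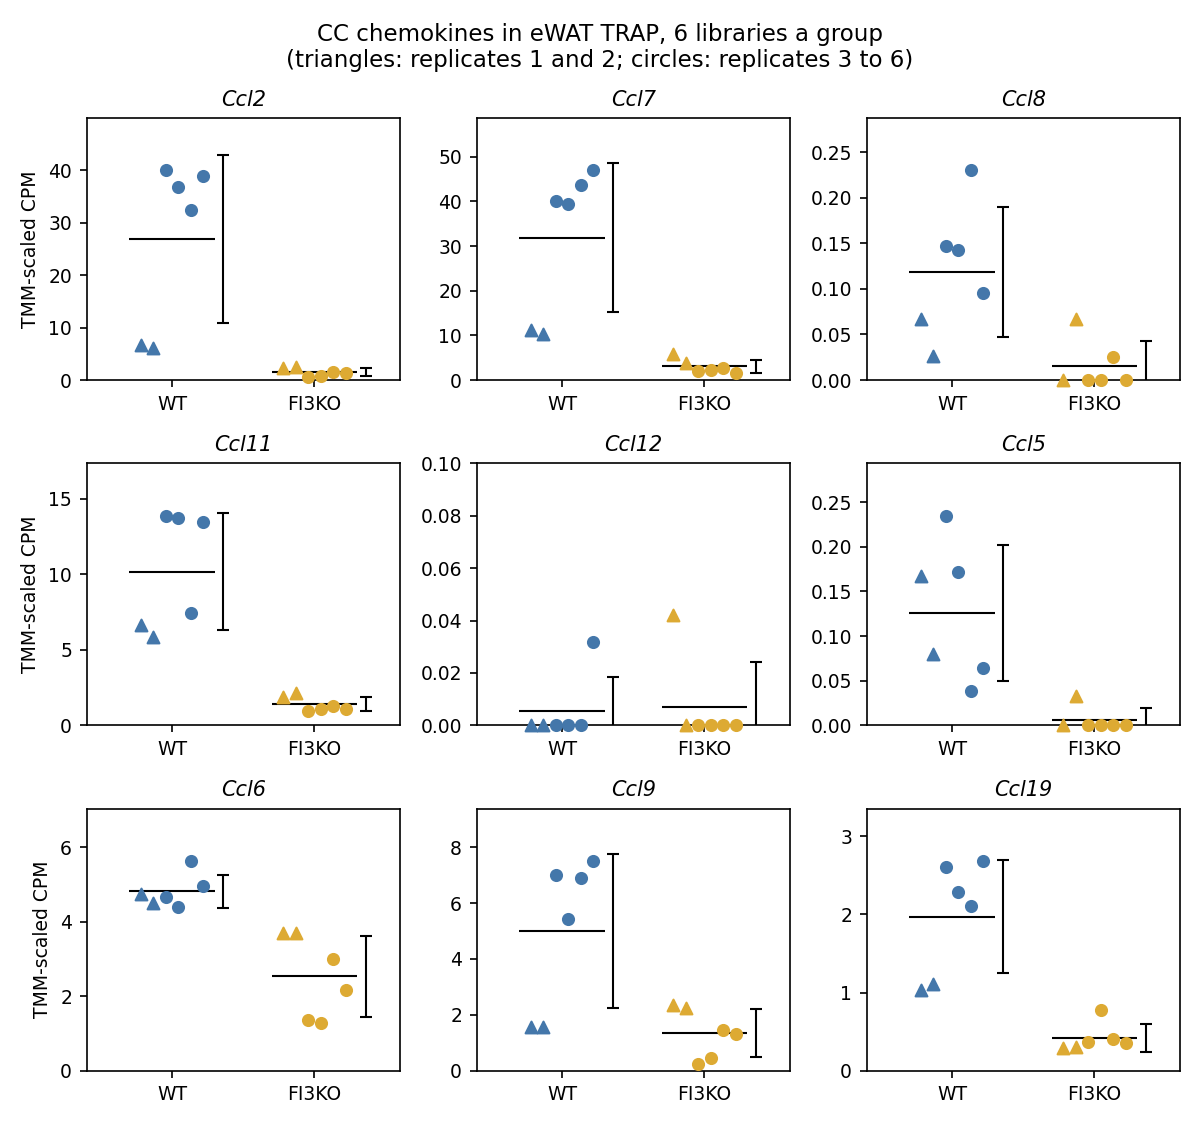
Level of each CC chemokine in TRAP libraries from eWAT, in TMM-scaled CPM on a linear axis, with a panel and a scale for each gene. Triangles are replicates 1 and 2 and circles replicates 3 to 6 of each group (6 WT and 6 FI3KO), black lines are means and bars are 1 SD either side, ending at 0 where they would pass it. The WT triangles lie far below the WT circles for Ccl2, Ccl7 and Ccl9, and for Ccl9 they fall among the FI3KO points.

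Within replicates 1 and 2, 4 members (Ccl2, Ccl7, Ccl11 and Ccl19) were called lower in FI3KO, where 0.727% of all genes tested were, and the same 4 passed the adjusted p alone, where 3.81% of all genes were lower. The log2 fold changes were -1.38 for Ccl2 (SE 0.262, edgeR adjusted p = 0.0148), -1.17 for Ccl7 (0.208, 0.0111), -1.65 for Ccl11 (0.277, 0.00867) and -1.84 for Ccl19 (0.399, 0.0231). Ccl6 (-0.33, adjusted p = 0.516) and Ccl9 (0.54, adjusted p = 0.491) did not pass. Between these pairs of libraries 5 members were lower without overlap, where 31.9% of all genes tested were, and Ccl9 was higher without overlap, as were 31.8%. Without WT replicate 1, or without WT replicate 2, no member passed the adjusted p, and without FI3KO replicate 1 there was 1 call. No member was called either with WT replicates 1 and 2 summed as 1 library, which was tried since they resembled each other more than any other pair within a group did. These fits leave an arm with 1 library, whose spread is then assumed to be that of the other groups, and the calls over all genes fell from 204 to 30 without WT replicate 1 and to 32 without WT replicate 2 or with the pair summed. Of the folds, that of Ccl2 stayed between -1.48 and -1.31 in these 3 fits, that of Ccl7 between -1.24 and -1.13, that of Ccl11 between -1.75 and -1.57 and that of Ccl19 between -1.91 and -1.80, each with an unadjusted edgeR p of 0.00344 or less. Without FI3KO replicate 2, Ccl7 (-0.89) fell below the fold cutoff and 3 members were called, and over all libraries left out in turn its fold ranged from -1.51 to -0.89.

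Within replicates 3 to 6, all 6 tested members were called lower, where 9.25% of all genes tested were called lower and 25.3% were lower past the adjusted p alone. The sets were chosen after these members had been seen to differ between them. Adjusted p-values within a set are therefore no independent test. Ccl2 was at 1.06 CPM on average in FI3KO and at 37.0 CPM in WT, a log2 fold change of -5.08 (SE 0.198, edgeR adjusted p = 3.58e-09). Ccl7 had a log2 fold change of -4.27 (0.158, 2.4e-09), Ccl11 of -3.44 (0.205, 8.15e-08) and Ccl9 of -2.91 (0.359, 2.93e-05), each with its SE and edgeR adjusted p. Ccl19 (-2.34) and Ccl6 (-1.31) changed least. In every one of these 6 genes the 4 FI3KO libraries lay below the 4 WT libraries, where 22.8% of all genes tested did so.

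The difference of the FI3KO effect between replicates 3 to 6 and replicates 1 and 2 was fitted as an interaction. Since the split was made because the sets had been seen to differ in these members, in WT and also in FI3KO (Ccl2 at 2.44 CPM on average in FI3KO replicates 1 and 2 and 1.06 CPM in replicates 3 to 6, Ccl7 at 4.79 and 2.17, Ccl9 at 2.29 and 0.867, Ccl6 at 3.69 and 1.95), the values describe that difference and are no independent test of it. The interaction passed for 4 of 6 members, all with the larger fall in replicates 3 to 6, where 13.7% of all genes tested passed in that direction. The difference in log2 fold change was -3.69 for Ccl2 (SE 0.339, edgeR adjusted p = 2.45e-05), -3.10 for Ccl7 (0.263, 1.55e-05), -3.45 for Ccl9 (0.616, 0.00176) and -1.79 for Ccl11 (0.346, 0.00282). For Ccl6 it was -0.99 (0.388, 0.0789) and for Ccl19 -0.50 (0.489, 0.484), and neither passed. Ccl6 passed as well without FI3KO replicate 5 (adjusted p = 0.00965), by the DESeq2 Wald test (0.0482) and with a replicate block (0.0411).

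**Figure D3:**
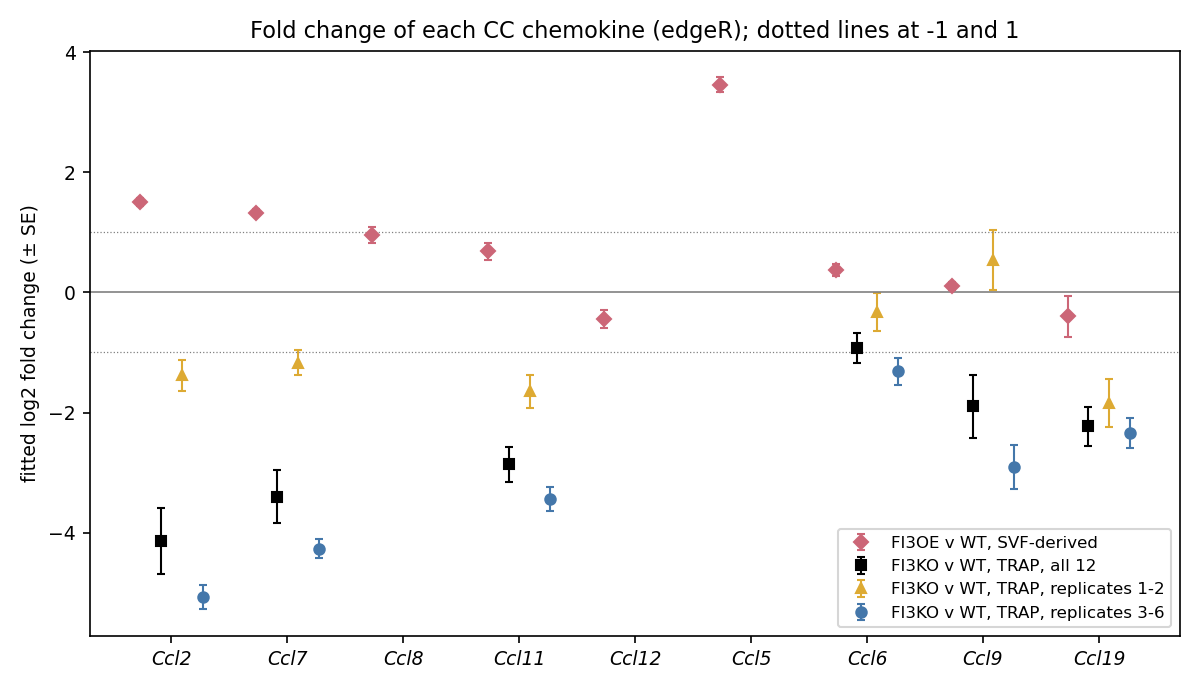
Fitted log2 fold change of each CC chemokine with its SE, for FI3OE against WT SVF-derived adipocytes and for FI3KO against WT TRAP over all replicates, replicates 1 and 2, and replicates 3 to 6. Dotted lines mark the fold cutoff at -1 and 1, and Ccl5, Ccl8 and Ccl12 have no TRAP points because they were not tested there. Ccl2 and Ccl7 are above 1 in FI3OE and below -1 in every TRAP contrast, and Ccl9 changes side between the sets of TRAP replicates.

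Markers of several cell types differed between the TRAP groups. Of 15 macrophage markers 13 were tested. Of these, 9 were called lower, where 4.87% of all genes tested were, and 1 higher (Cd14, log2 fold change 1.66), where 237 of 13624 were. The median of these markers was -1.47. Their sum was 40.8 to 74.1 CPM in FI3KO and 67.4 to 137 CPM in WT, and none of the 15 was at 0. Within replicates 1 and 2 the macrophage sum overlapped between the groups, at 58.6 to 74.1 CPM in FI3KO and 67.4 to 69.1 CPM in WT, and no macrophage marker was called. Past the adjusted p alone Cd74 was lower there (log2 fold change -0.71, edgeR adjusted p = 0.0170) and Csf1r higher (0.79, 0.0368). Within replicates 3 to 6 the sum was 40.8 to 46.2 CPM in FI3KO and 112 to 137 CPM in WT. There 11 of the 13 macrophage markers tested were called lower, where 9.25% of all genes tested were, and 1 higher, where 549 of 13624 were. The median log2 fold change of these markers was -2.24. Neutrophil markers, 2 of 6 tested, summed to 0.464 to 0.825 CPM in FI3KO and 3.29 to 7.34 CPM in WT, with Ly6g and Retnlg at 0 in both groups. S100a8 was at 0.245 CPM on average in FI3KO and 5.13 CPM in WT (log2 fold change -4.32), and it was called lower within replicates 1 and 2 as well (-3.31, edgeR adjusted p = 0.0111), where the neutrophil sum was 0.504 to 0.765 CPM in FI3KO and 3.29 to 3.41 CPM in WT. Elane was at 0.378 and 0.348 CPM (0.11, edgeR adjusted p = 0.792). The 11 T and NK cell markers summed to 0.248 to 1.30 CPM in FI3KO and 1.10 to 1.599 CPM in WT, and within replicates 3 to 6 they did not overlap, at 0.248 to 0.766 CPM and 1.31 to 1.599 CPM. The 10 fibroblast and preadipocyte markers summed to 1053 to 1870 CPM in FI3KO and 1528 to 2733 CPM in WT. That difference rested largely on Col1a1, with means of 279 CPM in FI3KO and 986 CPM in WT, while Col1a2 was at 467 and 410 CPM. Over all replicates 1 of the 10 was called higher (Dcn, log2 fold change 1.36), where 237 of 13624 genes tested were, and 2 lower, where 4.87% were. The median of the 10 was -0.21. Within replicates 3 to 6 the sums were also apart, at 1053 to 1475 CPM in FI3KO and 1909 to 2733 CPM in WT. There 4 were called lower, where 9.25% of all genes tested were, and 1 higher, where 549 of 13624 were. Within replicates 1 and 2 FI3KO was the higher group, at 1632 to 1870 CPM against 1528 to 1554 CPM. The 8 endothelial markers were higher in FI3KO in replicates 1 and 2, at 74.5 and 121 CPM against 37.5 and 42.0 CPM in WT, and overlapped in replicates 3 to 6. In replicates 1 and 2, 3 of 7 tested were called higher (Cldn5, Pecam1 and Tie1), where 105 of 13624 genes tested were. The adipocyte sum was lower in FI3KO within replicates 1 and 2 (41820 to 43820 against 48810 to 49030 CPM) and higher within replicates 3 to 6 (45520 to 51810 against 37290 to 44020 CPM). Car3 was a large part of it, at 20250 CPM on average in FI3KO and 15340 CPM in WT. Over all replicates 1 of the 10 adipocyte markers was called higher (Cfd, log2 fold change 1.83), where 237 of 13624 genes tested were, and 1 lower (Lep, -1.63), where 4.87% were. Mesothelial sums overlapped over all replicates, at 3.65 to 18.4 CPM in FI3KO and 4.72 to 31.97 CPM in WT. The part of these cells in the fall of the chemokines was not tested.

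**Figure D4:**
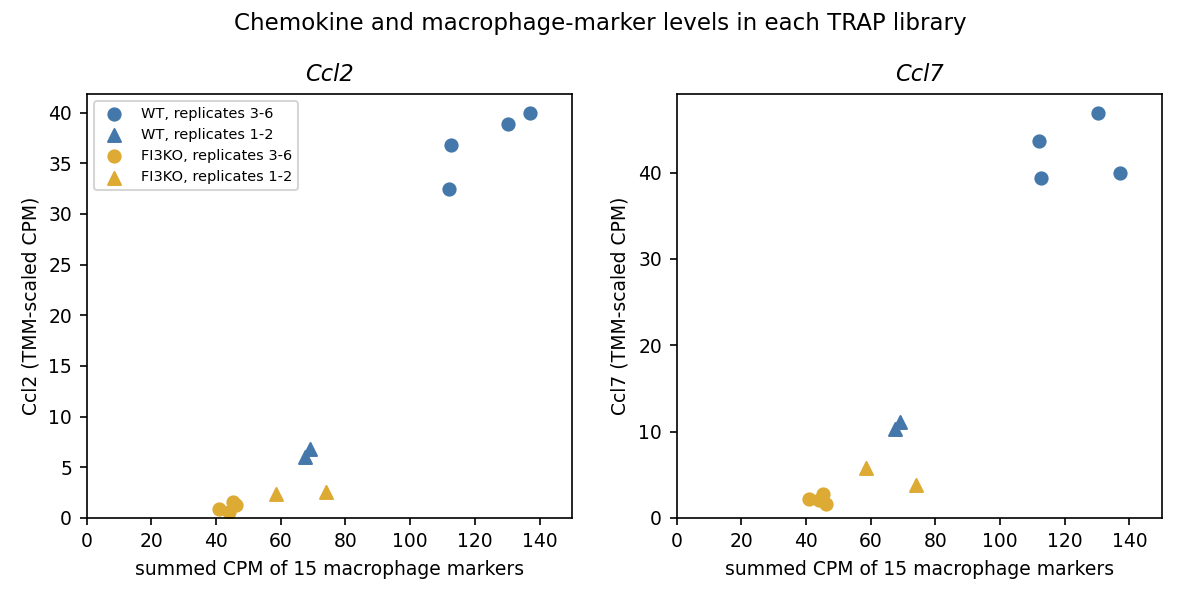
Summed CPM of 15 macrophage markers (x axis) against the CPM of Ccl2 and of Ccl7 (y axis) in the 12 TRAP libraries, with triangles for replicates 1 and 2 and circles for replicates 3 to 6 of WT and FI3KO. The WT triangles have marker sums of 67.4 and 69.1 CPM, within the range of the FI3KO triangles, but higher Ccl2 and Ccl7.

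**Figure D5:**
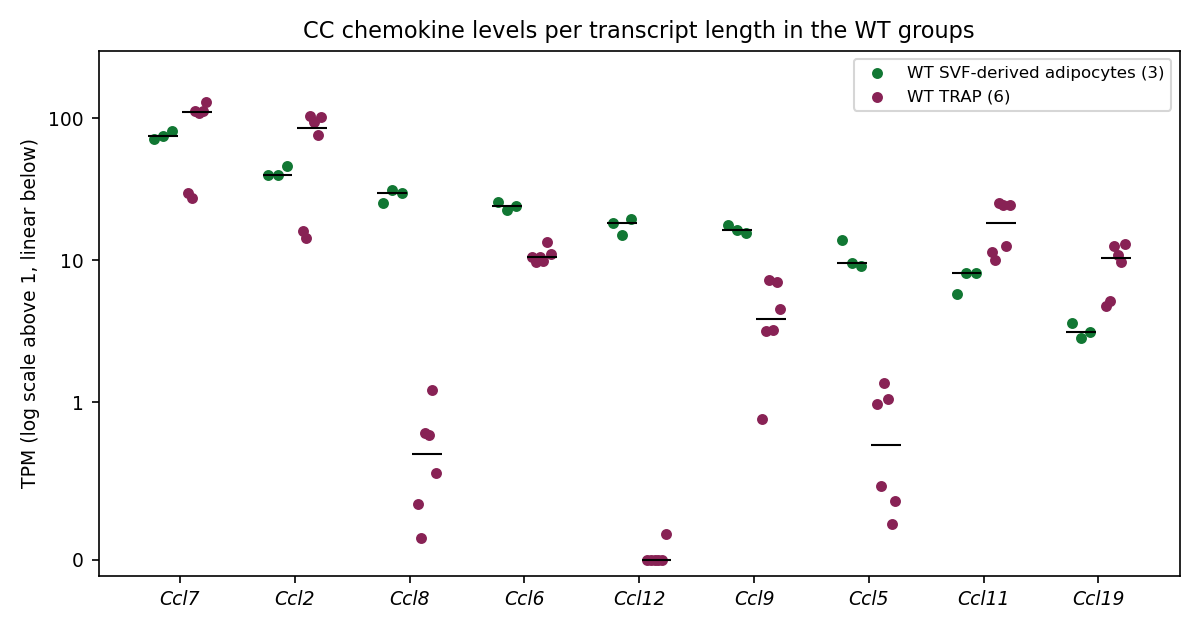
Level of the 9 CC chemokines in WT SVF-derived adipocytes (3 libraries) and WT TRAP (6 libraries), in TPM on an axis that is logarithmic above 1 and linear below, with points for libraries and a black line for the median. Ccl7 and Ccl2 lead in both, and Ccl5, Ccl8 and Ccl12 are the lowest 3 in TRAP.

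Baseline levels were compared between genes per length, in TPM, which scales reads by transcript length and by the library's total. In WT SVF-derived adipocytes the order of the medians was Ccl7 (74.9 TPM), Ccl2 (40.2), Ccl8 (29.8), Ccl6 (24.3), Ccl12 (18.2), Ccl9 (16.3), Ccl5 (9.58), Ccl11 (8.15) and Ccl19 (3.13). Of neighbours in this order, Ccl8 and Ccl6 overlapped between libraries, as did Ccl12 and Ccl9, and the others did not. In WT TRAP the order was Ccl7 (111 TPM), Ccl2 (85.1), Ccl11 (18.5), Ccl6 (10.6), Ccl19 (10.4), Ccl9 (3.87), Ccl5 (0.728), Ccl8 (0.671) and Ccl12 (0). The ranges of all neighbours overlapped there, but within a library Ccl7 was above Ccl2, and Ccl2 above Ccl11, in 6 of 6. Ccl6 and Ccl19 could not be ordered, each being above the other in 3 of 6 libraries.

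Ccl7 and Ccl2 therefore had the 2 highest levels in both WT groups, whereas Ccl8 and Ccl12, at 29.8 and 18.2 TPM in culture, were at 0.671 and 0 TPM in TRAP. The WT groups differ at once in fat depot, culture, diet, the unrecombined IRF3-2D allele and the way RNA was isolated, which cannot be told apart, and the macrophage markers summed to 2307 to 2464 CPM in WT culture and 67.4 to 137 CPM in WT TRAP. This contrast was not tested. Summed over the members, WT TRAP replicates 1 and 2 had 32.1 and 29.5 CPM and replicates 3 to 6 had 98.5 to 114 CPM, against 5.55 to 16.4 CPM in FI3KO. Ccl2 and Ccl7 together made up 55.4 to 77.3% of this sum in WT TRAP and 36.8 to 49.7% in FI3KO.

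Receptors and scavengers of CC chemokines were examined in the same fits. In SVF-derived adipocytes, Ccrl2 rose past the adjusted p alone (log2 fold change 0.84, SE 0.23, edgeR adjusted p = 0.0138), and Ackr4, a scavenger, fell past it (-0.44, SE 0.142, edgeR adjusted p = 0.0289). In TRAP, Ccr2, the receptor of Ccl2 and Ccl7, which monocytes and macrophages express, was at 0.619 to 1.55 CPM in FI3KO (median 0.675) and 2.38 to 4.76 CPM in WT (median 2.98). The groups did not overlap, and Ccr2 was called lower (log2 fold change -1.82, SE 0.285, edgeR adjusted p = 0.000554). Within replicates 3 to 6 it was called as well (-2.43). Within replicates 1 and 2 it kept its direction but did not pass (-0.91, SE 0.288, edgeR adjusted p = 0.0757).

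Among the 14 other CC chemokines, 5 were tested in SVF-derived adipocytes and none was called. Past the adjusted p alone Ccl4, which attracts monocytes, rose (log2 fold change 0.50, edgeR adjusted p = 0.0291) and Ccl25, which acts on Ccr9, fell (-0.30, 0.0069). In TRAP 3 were tested and none was called over all replicates, with Ccl27a, a Ccr10 ligand, higher past the adjusted p alone (0.96, edgeR adjusted p = 0.0142). Within replicates 3 to 6 Ccl27a was called higher (1.19, edgeR adjusted p = 0.00668).

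Of 21 signals and receptors that induce chemokines, 17 were tested in SVF-derived adipocytes. Il6 (log2 fold change 1.08) and Ifih1, a sensor of double-stranded RNA (1.02), were called higher, where 1.99% of all genes tested were. Past the adjusted p alone 7 of the 17 were higher and 3 lower, where 20.2% of all genes were higher and 16.8% lower. In TRAP 15 were tested and Tnfrsf1b, a TNF receptor, was called lower (-1.43), where 4.87% of all genes were, with 8 lower and none higher past the adjusted p alone, where 18.3% of all genes were lower. Of 21 transcription factors known at chemokine promoters, Irf7, an interferon-stimulated factor, was called higher in FI3OE (1.23), where 1.99% of all genes tested were. Past the adjusted p alone 11 of the 21 were higher and 1 lower, where 20.2% of all genes were higher and 16.8% lower, and the 11 include Irf3, which the design raises. In TRAP Irf8 (-2.64), Fos (-1.79), Irf5 (-1.67) and Junb (-1.04) were called lower, where 4.87% of all genes were. Of these, Irf8 and Irf5 are also myeloid factors. Past the adjusted p alone 1 of the 21 factors was higher and 9 lower, where 18.3% of all genes were lower, and the 9 include the targeted Irf3. None of these factors was called within replicates 1 and 2, where Irf8 (-1.07) and Junb (-0.20) were lower but Fos (1.36) and Irf5 (0.25) were higher in FI3KO. None of these changes passed the adjusted p. Within replicates 3 to 6, 6 of the 21 factors were called lower, where 9.25% of all genes were. Irf8 (-3.31), Irf5 (-2.79), Fos (-2.43) and Junb (-1.42) were among them. Of 6 genes of chemokine mRNA decay, none was called under both cutoffs in any contrast between groups, and in the interaction, which used the adjusted p alone, Zfp36 (-0.63), Zc3h12a (-0.58) and Khsrp (0.44) passed, where 3613 of 13624 genes did. Of 7 glycosaminoglycan and protease genes, none was called in FI3OE, and in TRAP Mmp12 (-2.33), Dpp4 (-1.5) and Mmp2 (-1.16), proteases that trim chemokines, were called lower, where 4.87% of all genes were. Within replicates 1 and 2 none of these 3 passed (Mmp12 0.22, Dpp4 -0.14 and Mmp2 0.83), and within replicates 3 to 6 all 3 were called lower (-3.95, -2.10 and -2.19).

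The genes whose pattern over the 12 TRAP libraries was most like that of Ccl2 were Ubd, Pik3ap1 and Trdn, with root mean square differences of centred log2 CPM of 0.414, 0.534 and 0.535, where the median over 10906 genes was 2.196. Since both groups entered this measure, genes that fell in FI3KO as Ccl2 did were favoured by the choice, and their fold changes are not given as results.

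Promoter sequence was examined for Ccl8 and Ccl12, neighbours with the most similar coding windows and with log2 fold changes of opposite sign in FI3OE, of which that of Ccl12 passed the adjusted p in only 4 of 15 fits and not on protein-coding transcripts alone (0.0871). The 250 bases before their start sites (RefSeq, GRCm38.p6, plus strand) are shown with the letters TATAAA in capitals, chr11:82114935-82115184 for Ccl8 and chr11:82101595-82101844 for Ccl12.
Ccl8: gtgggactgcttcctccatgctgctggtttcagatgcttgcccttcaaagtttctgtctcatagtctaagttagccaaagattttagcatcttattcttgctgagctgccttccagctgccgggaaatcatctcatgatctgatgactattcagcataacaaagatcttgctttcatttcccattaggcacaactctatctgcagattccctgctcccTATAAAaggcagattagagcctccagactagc
Ccl12: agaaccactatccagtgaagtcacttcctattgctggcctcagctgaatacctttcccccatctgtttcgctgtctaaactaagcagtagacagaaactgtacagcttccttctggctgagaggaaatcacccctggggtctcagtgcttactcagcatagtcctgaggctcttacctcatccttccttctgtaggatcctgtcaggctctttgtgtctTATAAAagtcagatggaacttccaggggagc
TATAAA lay at positions -32 to -27 in Ccl8 and -31 to -26 in Ccl12, and it occurred on either strand in 12.4% of 32851 promoter windows of this length. Promoters of 5 members were matched by symbol. Ccl2, Ccl5, Ccl7 and Ccl11, which include every member called in FI3OE, had no match and were not searched. On both strands the 5 promoters were searched for letters of the IRF (GAAANNGAAA, in 2.98% of windows), NF-kB (GGGANNNNCC, 17.6%), AP-1 (TGANTCA, 6.75%) and C/EBP (TTGCNNAA, 9.56%) motifs. None of these occurred in the windows of Ccl8, Ccl12 or Ccl6, Ccl9 held the AP-1 letters at -53 to -47, and Ccl19 held the IRF letters at -208 to -199 and the NF-kB letters at -250 to -241. The Ccl19 window (chr4:42756366-42756615) is counted from the RefSeq start site and overlaps the GENCODE gene, which reaches 42756577. Its IRF letters therefore lie inside the gene as GENCODE places it. A match describes the letters only.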

How the data were processed

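The authors quantified reads of the 18 libraries with Salmon 1.4.0 (GRCm38) after fastp, per the submitters' processing notes, and deposited expected counts, TPM and effective lengths for 118733 transcripts. Expected counts were summed per gene identifier with GENCODE M21 (99.3% of transcripts matched, 883 kept apart) and rounded. A scaffold copy of Ccl19 has its own identifier, and its reads are not in the values of Ccl19. They were 3.4 and 2.1 in WT SVF replicates 1 and 2 and 0 in the other libraries. CPM values were scaled by TMM factors, and TPM served comparisons of levels between genes.

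Each experiment was fitted in edgeR 4.0.16 (R 4.3.3) with filterByExpr, TMM and no covariates, by the quasi-likelihood test, and p-values were adjusted over all genes tested (Benjamini-Hochberg). The cutoffs were an adjusted p no higher than 0.05 and a log2 fold change of 1 or more in size, and for the interaction the adjusted p alone. All 9 members were named, with the called genes of the lists (at most 4 each by size of change), Irf3, and the 3 genes most like Ccl2; Ccl5 was too low in TRAP for that search. An item of the lists is not reported here. The members and lists were chosen with earlier results of these data known. The procedure was tested on simulated data.

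Alternatives were DESeq2 1.42.0, its size factors, other filters on low counts, a length offset, a fit of all 18 libraries, a replicate block and each library left out. Summing WT TRAP replicates 1 and 2, and counting protein-coding transcripts only, were added after seeing the data. That pair had a chi-square per degree of freedom of 2.54, the lowest of all pairs within groups but above sampling noise, and was kept as 2 libraries.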

Additional observations from a re-analysis of the deposited data

Results flagged for a closer look

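Ccl19 in FI3KO TRAP replicate 4, at 0.773 CPM, was far from the other 5 FI3KO libraries (0.294 to 0.400 CPM). Of 12 groups of members tested in this way chance flags about 1 in 20.

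In the interaction fit, the FI3KO effect differed between TRAP replicates 3 to 6 and replicates 1 and 2, a split made after these members had been seen to differ between the sets and so no independent test, for Ccl2 (difference in log2 fold change -3.69, edgeR adjusted p = 2.45e-05), Ccl7 (-3.10, 1.55e-05), Ccl9 (-3.45, 0.00176) and Ccl11 (-1.79, 0.00282).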

How the results depend on the processing

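In TRAP over all replicates and within replicates 3 to 6, Ccl2, Ccl7, Ccl11 and Ccl9 kept their direction in all 21 alternatives. The number of members called was 5 to 6 (all replicates), 6 in each (replicates 3 to 6), 3 to 4 (FI3OE) and 4 to 5 (interaction) with single libraries left out. Without a filter on low counts, 7 of 9 members were called lower in TRAP over all replicates, where 866 of 24793 genes tested were. The fit of all 18 libraries also called 7 of 9 lower there, where 1029 of 17289 genes were. Both fits took in Ccl5, Ccl8 and Ccl12, which were near the floor of detection. In FI3OE the fit of all 18 libraries called 1 member, against 3. Within replicates 1 and 2, against 4, the number was 2 with the libraries of that set alone, 0 to 4 with single libraries left out (0 without WT replicate 1 or 2) and 0 with these summed.

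Replicate numbers did not pair the samples (same-number correlations of -0.0458 to 0.0154 in SVF-derived adipocytes and -0.293 to 0.104 in TRAP, with the own number best for 1 of 3 and 0 of 6). With a replicate block the number of members called within replicates 1 and 2 was 2, and Ccl9 over all TRAP replicates had an adjusted p of 0.0891. In TRAP, Ccl6 passed the fold cutoff without FI3KO replicate 1 (-1.07) or 2 (-1.07).

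With the transcript length offset the log2 fold change of Irf3 became 0.71 over all TRAP replicates, 0.84 in replicates 1 and 2 and 0.64 in replicates 3 to 6, and that of Ccl9 in replicates 1 and 2 became -0.07. The Ccl9 interaction then had an adjusted p of 0.152. The cause was not tested.

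In the baseline order, 6 members in WT SVF-derived adipocytes and 3 in WT TRAP changed place with CPM in place of TPM, and 0 to 2 and 0 to 4 with single libraries left out. Depth limits Ccl5, Ccl8 and Ccl12 in TRAP, and Ccl19 shares 58.8% of its runs of 31 bases with 4 other genes.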
